A study of Mus musculus with 4 samples.

Results

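The genes described here are 33 genes of developing T cells (thymocytes), read in RNA from sorted thymic epithelium. They were chosen by name as genes of recombination, T cell receptor signalling and thymocyte stage, with no receptor gene segments among them. Each name matched 1 row of a count table of 54532 genes. The choice did not use measured values, but it was made with earlier results of these data known. Bulk RNA sequencing covered 4 libraries from C57BL/6 mouse thymus, 1 per group. The groups are medullary epithelial cells (mTEC, Ly51- UEA1+) from SCD1 knockout mice, mTEC from littermate controls labelled WT, cortical epithelial cells (cTEC, Ly51+ UEA1-) from SCD1 knockout mice, and cTEC from littermate controls. No treatment is named. The labels give neither the age nor the number of the mice behind a library, nor which part of Scd1 was deleted and in which cells.

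A thymocyte assembles its receptor genes with the RAG recombinase, adds bases at the joins with terminal transferase, and pairs the first β chain with the pre-T cell receptor α chain. The finished receptor signals through the CD3 chains, the kinases Lck and ZAP-70 and the adaptors Lat and SLP-76, while CD4 or CD8 binds the MHC molecule on the epithelial cell. Thymocytes lie in close contact with the epithelium: CCR9 binds the chemokine CCL25, which cortical epithelium makes, and CCR7 draws positively selected cells to the medulla.

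Gene counts totalled 17051620 in knockout mTEC, 16467844 in control mTEC, 18151725 in knockout cTEC and 15740383 in control cTEC. With 1 library per group there is no replicate spread and no test. Every 95% interval below covers counting error only, which PCR duplicates can make too narrow, and no difference between libraries can be assigned to the genotype or the population beyond these 4 libraries. Levels are compared between genes in RPKM, which divides the counts by the TMM-scaled library total and by gene length, and a log2 ratio is taken over TMM-scaled counts with 0.5 added. Scd1, the targeted gene, had 278 counts in knockout mTEC and 1310 in control mTEC, and 73 in knockout cTEC and 325 in control cTEC. Markers followed the sort labels: the medullary regulator Aire had 22186 and 21598 counts in knockout and control mTEC and 590 and 575 in knockout and control cTEC, and the cortical proteasome subunit gene Psmb11 had 1026 and 706 in mTEC of the same genotypes and 12201 and 8462 in cTEC.

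All 33 genes had counts in all 4 libraries, and the counts given below are as deposited, before scaling. Together they took 0.0840% of the counts in knockout mTEC, 0.0720% in control mTEC, 0.0958% in knockout cTEC and 0.0755% in control cTEC. Bulk RNA cannot tell fewer thymocytes from less thymocyte RNA per cell, nor either of these from expression in the epithelial cells themselves. The 4 T cell receptor constant genes, which serve the receptor of T cells, summed to 2144 counts in knockout mTEC, 1377 in control mTEC, 3212 in knockout cTEC and 2103 in control cTEC, and none was at 0 in any library.

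Some of the genes lie side by side, and 2 such pairs show how unequal neighbours can be in these libraries. Cd3g (chromosome 9, 44969572 to 44980431, minus strand) and Cd3d (44981786 to 44987339, plus strand) point away from each other with starts 1355 bases apart in mm10. Rag2 (chromosome 2, 101624718 to 101632529, plus strand) and Rag1 (101638282 to 101649501, minus strand) point towards each other with 5752 bases between their ends. Cd3d counts were 0.777 to 1.09 of Cd3g counts in the 4 libraries, but per length Cd3d averaged 7.95 RPKM and Cd3g 5.04. Rag1 averaged 6.66 RPKM and Rag2 0.222. The 200 bases before each RefSeq start (GRCm38.p6, read 5′ to 3′ on the gene's strand) are shown for both pairs. Whether these sequences bear on the levels was not tested. Capitals mark matches on either strand to short motifs of RUNX, ETS, E-box, GATA and TCF factors, which are spelled out after the sequences.
Cd3g, chr9:44980432-44980631, minus strand: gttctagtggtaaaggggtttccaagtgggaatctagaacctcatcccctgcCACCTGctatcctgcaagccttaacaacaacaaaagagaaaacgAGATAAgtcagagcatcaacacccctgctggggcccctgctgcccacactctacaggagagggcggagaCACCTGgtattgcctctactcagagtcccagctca
Cd3d, chr9:44981586-44981785, plus strand: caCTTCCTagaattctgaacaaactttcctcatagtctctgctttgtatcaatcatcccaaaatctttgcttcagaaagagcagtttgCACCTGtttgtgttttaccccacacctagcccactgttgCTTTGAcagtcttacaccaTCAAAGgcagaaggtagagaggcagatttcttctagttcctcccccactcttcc
Rag1, chr2:101649533-101649732, minus strand: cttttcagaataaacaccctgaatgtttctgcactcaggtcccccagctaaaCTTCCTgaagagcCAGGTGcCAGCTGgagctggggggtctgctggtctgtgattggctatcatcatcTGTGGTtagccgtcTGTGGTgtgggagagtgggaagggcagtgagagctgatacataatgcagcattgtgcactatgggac
Rag2, chr2:101624512-101624711, plus strand: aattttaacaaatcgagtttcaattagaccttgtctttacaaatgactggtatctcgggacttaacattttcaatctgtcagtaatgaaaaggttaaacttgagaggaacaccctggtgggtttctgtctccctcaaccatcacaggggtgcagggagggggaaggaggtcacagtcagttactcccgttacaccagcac
The Cd3g stretch held 3 matches, Cd3d 4, Rag1 5 and Rag2 0. RefSeq promoter windows, from 250 bases before the start to 50 after it, were at hand for 24 of the 33 genes. Only the 200 bases before the start were searched for motifs. The ETS motif, spelled AGGAAG and read on both strands like the rest, occurred in 13 of these 24 and in 24.7% of all 32851 promoters of the table. For every motif, a gene was counted where any of its promoters matched, whereas the share of all is over single promoters. The shares therefore differ in unit and are not directly comparable. An E-box with the letters CAGGTG was found in 9 of 24 and in 13.9% of all, and a second form with the letters CAGCTG in 4 of 24 and in 10.9%. For RUNX the letters were TGTGGT, present in 4 of 24 and in 11.2% of all. The TCF motif, searched for as CTTTGA, was present in 6 of 24 and in 10.9% of all. The GATA motif, searched for as AGATAA, was present in 4 of 24 and in 7.80% of all, and the TATA box, as TATAAA, in 4 of 24 and in 9.96%. Matches of different motifs may share end letters. These matches describe the letters and are not binding sites.

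Per length, the transcription factor gene Tcf7 was the most abundant of the 33 in every library, and the recombinase gene Rag2 was the least abundant. Tcf7 encodes TCF-1, which sets T cell identity downstream of Notch. It stood at 47.2 RPKM in knockout mTEC, 42.2 in control mTEC, 54.1 in knockout cTEC and 38.3 in control cTEC. Ccr7 came next on the average of the 4 libraries, with 33.5 RPKM in knockout mTEC, 28.1 in control mTEC, 10.9 in knockout cTEC and 9.59 in control cTEC, and its order against the other genes therefore differed between mTEC and cTEC. Lck, Thy1 and Cd8a followed with averages of 17.2, 17.1 and 16.6 RPKM, which are too close to be ordered. At the low end, Ptcra averaged 0.678 RPKM and Rag2 0.222 RPKM, and both had under 50 counts over each pair of libraries, the minimum set for counting a ratio.

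**Figure D1:**
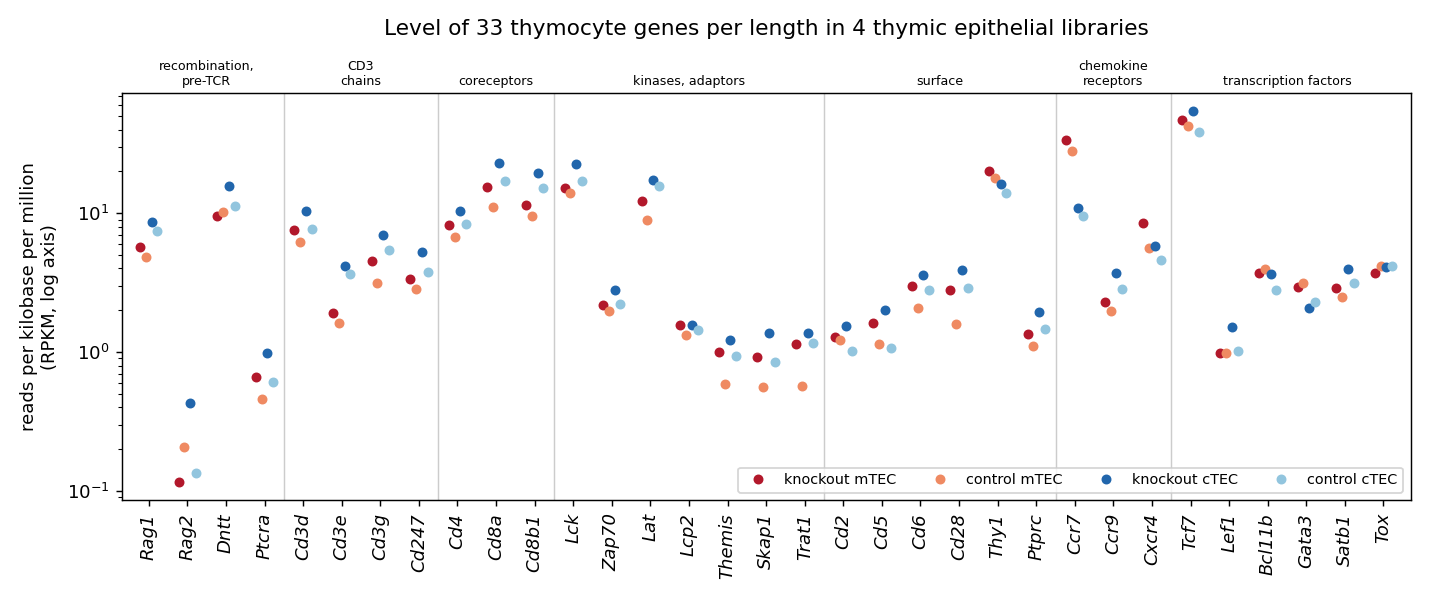
Level of each of the 33 genes in each library, in RPKM on a log axis, grouped by role. Points are single libraries, so there are no replicate errors. Tcf7 lies highest, Rag2 lowest, and Ccr7 is the gene whose mTEC points lie farthest above its cTEC points.

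Among the recombination genes, Rag1, the catalytic subunit of the recombinase, had 662 counts in knockout mTEC, 544 in control mTEC, 997 in knockout cTEC and 756 in control cTEC. Rag2, its obligate partner, had 7 and 12 counts in knockout and control mTEC and 26 and 7 in knockout and control cTEC. Rag2 was therefore between 0.00926 and 0.0261 of Rag1 in each library. Dntt, terminal transferase, had 355 counts in knockout mTEC, 371 in control mTEC, 587 in knockout cTEC and 367 in control cTEC, which leaves knockout cTEC apart from the other 3 libraries. Ptcra, the pre-T cell receptor α chain, had 15 and 10 counts in knockout and control mTEC and 22 and 12 in knockout and control cTEC.

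The receptor complex was read from several genes at similar depth. The γ chain gene Cd3g had 261 counts in knockout mTEC, 175 in control mTEC, 402 in knockout cTEC and 273 in control cTEC, and its divergent neighbour Cd3d had 241 and 191 in knockout and control mTEC and 332 and 212 in knockout and control cTEC. Cd3d was thus 0.923 and 1.09 of Cd3g in knockout and control mTEC and 0.826 and 0.777 of it in knockout and control cTEC, and the 4 intervals span 0.646 to 1.35. Cd3e, the ε chain gene, had 137 counts in knockout mTEC, 112 in control mTEC, 298 in knockout cTEC and 229 in control cTEC, so both mTEC values lie under both cTEC values. Cd247, the ζ chain gene, had 315 and 258 in knockout and control mTEC and 492 and 307 in knockout and control cTEC. Its reading is uncertain because 60.3% of its exon bases also belong to Pou2f1 or Gm16565 in the GENCODE M21 annotation.

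Coreceptor genes were led by Cd8a, the CD8 α chain, with 982 counts in knockout mTEC, 690 in control mTEC, 1472 in knockout cTEC and 942 in control cTEC. Cd8b1, the CD8 β chain, had 297 and 242 in knockout and control mTEC and 510 and 347 in knockout and control cTEC, and Cd4 had 584 and 463 in knockout and control mTEC and 730 and 517 in knockout and control cTEC. All 3 were highest in knockout cTEC and lowest in control mTEC. Of the kinases and adaptors, the Src-family kinase gene Lck had the most counts, with 779 in knockout mTEC, 696 in control mTEC, 1154 in knockout cTEC and 764 in control cTEC. Lat, the membrane scaffold that ZAP-70 phosphorylates, had 597 and 418 in knockout and control mTEC and 845 and 661 in knockout and control cTEC. Trat1, an adaptor of the receptor complex, had 93 and 45 in knockout and control mTEC and 113 and 83 in knockout and control cTEC, so control mTEC lies apart below the other libraries. Themis, needed for positive selection, had 205 and 118 in knockout and control mTEC and 249 and 168 in knockout and control cTEC, and the adaptor gene Skap1 had 121 and 71 in knockout and control mTEC and 179 and 96 in knockout and control cTEC. Lcp2, which encodes SLP-76, had 122 and 101 in knockout and control mTEC and 122 and 98 in knockout and control cTEC, and Zap70 had 115 and 100 in knockout and control mTEC and 147 and 102 in knockout and control cTEC. All 7 had more counts in the knockout library of each pair.

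The surface molecule gene Thy1 had 1059 counts in knockout mTEC, 916 in control mTEC, 850 in knockout cTEC and 641 in control cTEC, with both mTEC libraries on top. The costimulatory receptor gene Cd28 had 299 and 166 in knockout and control mTEC and 418 and 273 in knockout and control cTEC. Cd5, which dampens receptor signalling, had 59 and 40 in knockout and control mTEC and 73 and 34 in knockout and control cTEC, and the related Cd6 had 179 and 121 in knockout and control mTEC and 214 and 146 in knockout and control cTEC. Ptprc, the CD45 phosphatase, had 433 and 346 counts in knockout and control mTEC and 626 and 408 in knockout and control cTEC, and the adhesion molecule gene Cd2 had 39 and 36 in knockout and control mTEC and 47 and 27 in knockout and control cTEC. Cd28, Cd6 and Ptprc were highest in knockout cTEC and lowest in control mTEC. Among chemokine receptors, Ccr7 (chromosome 11, 99144196 to 99155077, minus strand) had 1165 counts in knockout mTEC, 948 in control mTEC, 379 in knockout cTEC and 290 in control cTEC. Ccr9 had the opposite order between populations, with 412 and 345 in knockout and control mTEC and 667 and 443 in knockout and control cTEC, although 21.5% of its exon bases are shared with other annotated genes. Cxcr4, the CXCL12 receptor of early thymocytes and many other cells, had 269 and 174 in knockout and control mTEC and 184 and 127 in knockout and control cTEC.

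Of the 6 transcription factor and chromatin genes, Tcf7 had 2177 counts in knockout mTEC, 1886 in control mTEC, 2488 in knockout cTEC and 1535 in control cTEC. Satb1, a chromatin organiser of thymocytes, had 960 and 806 in knockout and control mTEC and 1317 and 912 in knockout and control cTEC. Bcl11b, which commits cells to the T lineage, had 525 and 551 in knockout and control mTEC and 523 and 347 in knockout and control cTEC, so control cTEC lies apart below the other 3. Tox, needed for CD4 lineage development, had 498 and 539 in knockout and control mTEC and 544 and 484 in knockout and control cTEC. Gata3 had 206 and 214 in knockout and control mTEC and 145 and 139 in knockout and control cTEC, higher in both mTEC libraries, and Lef1, a partner of TCF-1, had 151 and 147 in knockout and control mTEC and 233 and 136 in knockout and control cTEC, highest in knockout cTEC. For Lef1, 13.7% of exon bases are shared with another annotated gene.

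The comparison of knockout and control mTEC asks how these genes stood in the medullary sort when SCD1, the enzyme that makes oleic acid, was knocked out. Summed over the 33 genes, knockout mTEC had 14319 counts and control mTEC 11852, a log2 ratio of 0.23 (0.19 to 0.26) or 1.17-fold. Of the 31 genes with at least 50 counts over the pair, 26 had a ratio above 0 and 5 below it, 1 of which (Lef1) turns with DESeq2 size factors. Over all 16466 genes measured, 52.0% were above 0. The median of the 31 was 0.25, against 0.0066 over all genes. The interval lay above 0 for 20 of the 31 and below 0 for 0, where 11.6% of all genes had an interval above 0. A rule of 25% (the higher library at least 25% above the lower, with an interval clear of 0) was met upwards by 9 genes, or 29.0%, against 4.86% of all genes. No gene met it downwards (3.3% of all genes), and 0 reached 2-fold in either direction (0.504% of all genes higher and 0.431% lower).

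The 9 genes were 4 of 7 kinases and adaptors (Lat, Themis, Skap1 and Trat1), 2 of 6 surface genes (Cd6 and Cd28), and 1 each of the CD3 chains, coreceptors and chemokine receptors (Cd3g, Cd8a and Cxcr4). The highest ratio was that of Trat1, at 0.995 (0.47 to 1.55) and 1.99-fold, followed by Cd28 at 0.80 (0.53 to 1.09), Themis at 0.75 (0.42 to 1.09) and Skap1 at 0.72 (0.29 to 1.17). Trat1 lies so close to 2-fold that DESeq2 size factors carry it past that rule. Cxcr4 stood at 0.58 (0.30 to 0.87), Cd3g at 0.53 (0.25 to 0.82), Lat at 0.47 (0.29 to 0.65) and Cd8a at 0.46 (0.32 to 0.61). The intervals of these 8 lie above the median of the 33 genes, which 19 others include. The remaining 4 lie below it: Tox at −0.16 (−0.34 to 0.02), Bcl11b at −0.11 (−0.29 to 0.06), Dntt at −0.11 (−0.32 to 0.11) and Gata3 at −0.10 (−0.38 to 0.18). By role, kinase and adaptor counts summed to a ratio of 0.35, coreceptors to 0.37 and CD3 chains to 0.33. Transcription factors summed to 0.08 but had a median of −0.05, and recombination genes summed to 0.11.

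**Figure D2:**
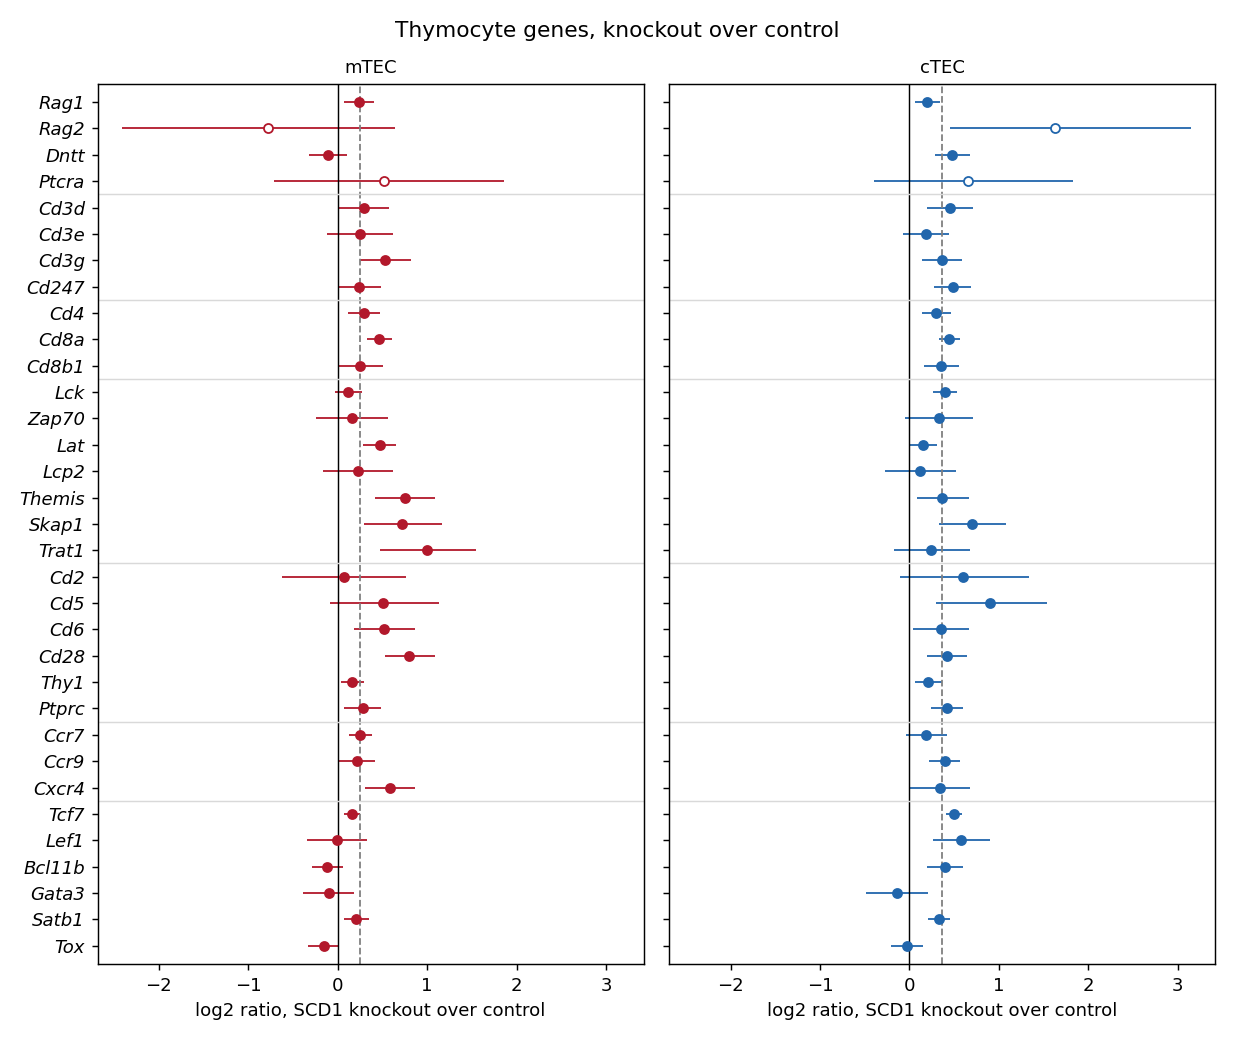
Knockout over control log2 ratio of each gene in mTEC (left) and cTEC (right), with 95% counting intervals and both panels on the same scale. Dashed lines mark the medians, and open circles mark Rag2 and Ptcra, which have under 50 counts. Among the other genes, in mTEC, Trat1 lies farthest right at 0.995 and Tox farthest left at −0.16; in cTEC most genes lie near the median of 0.36, and Gata3 is lowest at −0.14.

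In cTEC the same question gave a higher summed ratio over the 33 genes and a higher median over the 31 measured. Gene by gene the gap was small, with a median difference, mTEC minus cTEC, of −0.04 over 31 genes. Knockout cTEC had 17385 counts over the 33 genes and control cTEC 11883, a log2 ratio of 0.35 (0.32 to 0.38) or 1.28-fold. Of 31 measured genes, 29 were above 0, against 52.4% of all 14445 genes. The median was 0.36, against 0.010 over all genes. The interval lay above 0 for 23 and below it for 0, where 16.3% of all genes lay above 0. The 25% rule was met upwards by 19 genes, or 61.3%, against 5.42% of all genes. Downwards it was met by 0 genes against 5.74%, and the 2-fold rule by 0 genes in either direction against 0.492% higher and 0.692% lower.

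These 19 included members of every role: Dntt of 2 measured recombination genes, 3 of 4 CD3 chains, 2 of 3 coreceptors, 3 of 7 kinases and adaptors, 4 of 6 surface genes, 2 of 3 chemokine receptors and 4 of 6 transcription factors. The highest was Cd5, at 0.90 (0.30 to 1.54), on 73 counts in the knockout and 34 in the control. Skap1 stood at 0.70 (0.34 to 1.07), Lef1 at 0.58 (0.27 to 0.89), Tcf7 at 0.50 (0.41 to 0.59), Dntt at 0.48 (0.29 to 0.67) and Cd247 at 0.48 (0.27 to 0.69). The interval of Tcf7 alone lay above the median, and 25 genes included it. Below it lay Gata3 at −0.14 (−0.48 to 0.21), Tox at −0.03 (−0.21 to 0.15), Lat at 0.16 (0.01 to 0.31), Rag1 at 0.20 (0.06 to 0.34) and Thy1 at 0.21 (0.06 to 0.36). By role, the summed ratios ran from 0.31 for kinases and adaptors to 0.39 for coreceptors. Rag2 had 26 counts in knockout cTEC and 7 in control cTEC, a ratio of 1.63 (0.45 to 3.14), and is not among the 31.

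Markers of other cells were read beside these. The 10 cTEC markers were all above 0 in both genotype pairs, with summed ratios of 0.27 in mTEC and 0.32 in cTEC. T cell receptor constant genes summed to 0.59 in mTEC and 0.41 in cTEC, and all 4 were above 0 in both pairs. Endothelial genes summed to 0.21 in mTEC (8 of 9 measured genes above 0) and 0.44 in cTEC (5 of 7), and myeloid and dendritic genes to 0.14 in mTEC (9 of 15) and 0.27 in cTEC (10 of 12). Over all genes, 52.0% were above 0 in mTEC and 52.4% in cTEC. Summed levels over the 12 endothelial genes were 1430 counts in knockout mTEC, 1195 in control mTEC, 796 in knockout cTEC and 512 in control cTEC. In mTEC and cTEC, B cell genes stood at 0.16 and −0.19, fibroblast and pericyte genes at 0.01 and −0.04, general epithelial genes at 0.12 and 0.10, and mTEC markers at −0.03 and −0.13. The part of these groups in the thymocyte gene ratios was not tested.

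The ratios in mTEC and cTEC come from separate libraries, and 26 of the 31 genes were above 0 in both. The share above 0 in both was not counted over all genes. The 25% rule was met upwards in both pairs by 7 genes (Cd3g, Cd8a, Themis, Skap1, Cd6, Cd28 and Cxcr4), which are 77.8% of the 9 in mTEC and 36.8% of the 19 in cTEC. Over all genes the shared ones were 11.4% of those in mTEC and 11.6% of those in cTEC. These shares rest on unlike base rates. In cTEC the rule was met upwards by 61.3% of the 31 genes and 5.42% of all genes, and in mTEC by 29.0% and 4.86%. The shared percentages are therefore not directly comparable, and an expected overlap was not computed. Gene by gene the sizes in the 2 pairs were only loosely related, with Pearson's r of 0.24 and Spearman's rho of 0.08 across the 31 genes, which share libraries within each pair and are not independent replicates. The difference of the ratios, mTEC minus cTEC, had an interval below 0 for 5 genes and above 0 for 3. The same count was not made over all genes, so no background share stands beside it. Dntt differed by −0.59 (−0.87 to −0.30), Lef1 by −0.58 (−1.03 to −0.14), Bcl11b by −0.51 (−0.77 to −0.25), Tcf7 by −0.34 (−0.46 to −0.21) and Lck by −0.28 (−0.48 to −0.08). On the other side, Trat1 differed by 0.75 (0.10 to 1.40), Cd28 by 0.39 (0.04 to 0.74) and Lat by 0.31 (0.08 to 0.55). Without replicates these differences were not tested. The mTEC ratio of Lef1 was −0.0052, and 0.00060 with DESeq2 size factors, so its side of 0 turns with the scaling.

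**Figure D3:**
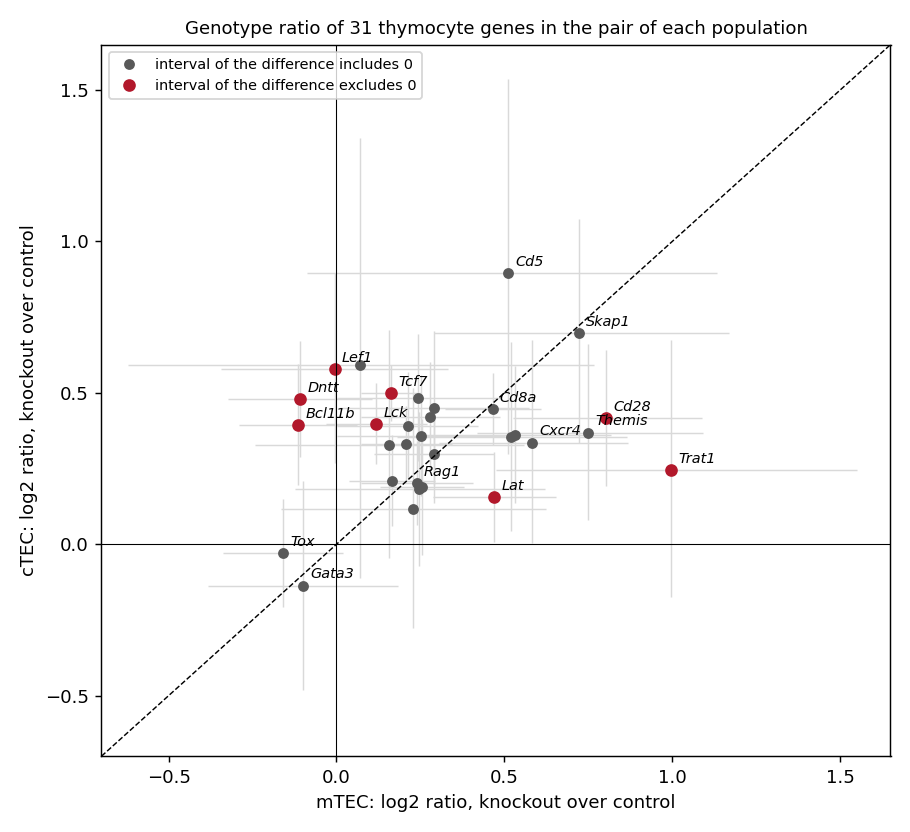
Knockout over control log2 ratio in cTEC against that in mTEC for the 31 measured genes, with 95% counting intervals and equality as a dashed line. Red points are the 8 genes whose difference has an interval that excludes 0. Most points lie in the upper right, where both ratios are above 0; Dntt and Bcl11b are above 0 on the cTEC axis and below 0 on the mTEC axis, Lef1 lies at −0.0052 on the mTEC axis, a side that turns with DESeq2 size factors, and Trat1 lies farthest along the mTEC axis.

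Between populations, most of the 31 measured genes were lower in mTEC than in cTEC and a few were higher. Knockout mTEC against knockout cTEC gave a median of −0.46 over 31 genes, against −0.08 over all 15962 genes, with 5 genes above 0 (45.3% of all genes). Control mTEC against control cTEC gave a median of −0.32, against −0.05 over all 15747 genes, with 8 above 0 (46.5% of all genes). In knockouts, 17 genes met the 25% rule downwards (54.8%, against 31.9% of all genes) and 3 upwards (9.68%, against 30.1%). In controls, 15 met it downwards (48.4%, against 31.1%) and 4 upwards (12.9%, against 29.6%). The 2-fold rule was met upwards by 1 gene in knockouts (19.8% of all genes) and 1 in controls (19.0%), and downwards by 1 in knockouts (8.96%) and 2 in controls (8.52%).

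Ccr7 was the gene at least 2-fold higher in mTEC, by 3.06-fold in knockouts, with a log2 ratio of 1.62 (1.45 to 1.79), and by 2.93-fold in controls, with 1.55 (1.36 to 1.75). Cd3e was the gene at least 2-fold lower in both genotypes, at −1.12 (−1.43 to −0.83) in knockouts and −1.19 (−1.53 to −0.86) in controls, and Trat1 joined it in controls at −1.03 (−1.60 to −0.50). The other CD3 genes were less far below 0, with Cd3g at −0.63 in knockouts and −0.80 in controls, and Cd3d at −0.46 in knockouts and −0.31 in controls. In knockouts and controls, coreceptors summed to −0.54 and −0.53, kinases and adaptors to −0.47 and −0.51, and recombination genes to −0.65 and −0.44. Surface genes stood nearer 0, at −0.11 in knockouts and −0.07 in controls, where Thy1 alone was above 0 in both genotypes, at 0.31 (0.18 to 0.45) in knockouts and 0.36 (0.21 to 0.51) in controls.

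The median of the population ratios was included by the intervals of 18 genes in knockouts and 15 in controls. Of the genes below it, Cd8b1 stood at −0.78 (−0.99 to −0.57) in knockouts and −0.68 (−0.92 to −0.44) in controls, and Cd8a at −0.59 (−0.71 to −0.47) in knockouts and −0.61 (−0.75 to −0.46) in controls. Dntt was below it in knockouts, at −0.73 (−0.92 to −0.54), and stood at −0.14 (−0.35 to 0.07) in controls. Ccr9 was likewise below it in knockouts, at −0.70 (−0.88 to −0.52). Below the median in controls were also Cd28, Lat, Themis and Rag1, at −0.49, −0.50, −0.28 and −0.59 in knockouts and −0.87, −0.82, −0.66 and −0.63 in controls. Above it in both were Ccr7, Cxcr4, Gata3, Thy1, Bcl11b, Tcf7 and Tox, with Cxcr4 at 0.54 (0.27 to 0.82) in knockouts and 0.30 (−0.04 to 0.64) in controls, and Lcp2 was above it in knockouts at −0.0032 (−0.38 to 0.37).

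Transcription factors were split. Gata3 was higher in mTEC, at 0.50 (0.19 to 0.82) in knockouts and 0.46 (0.15 to 0.78) in controls, whereas Satb1 was lower, at −0.46 (−0.58 to −0.34) in knockouts and −0.34 (−0.47 to −0.20) in controls. Bcl11b stood at 0.00 (−0.18 to 0.18) in knockouts and 0.51 (0.31 to 0.71) in controls. Tcf7 turned its sign, with −0.20 (−0.28 to −0.11) in knockouts and 0.14 (0.04 to 0.24) in controls. Myeloid and dendritic genes, some of them from cells that express Ccr7, were higher in mTEC by summed ratios of 1.40 in knockouts and 1.53 in controls, and B cell genes by 1.64 in knockouts and 1.28 in controls. Lyz2 alone gave 4503 of the 7397 myeloid and dendritic counts in knockout mTEC and 3808 of 6503 in control mTEC. By gene, 13 of 15 measured were above 0 in knockouts and 12 of 14 in controls, with 2 below 0 in each. The part of myeloid, dendritic and B cells in the Ccr7 and Gata3 levels was not tested.

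**Figure D4:**
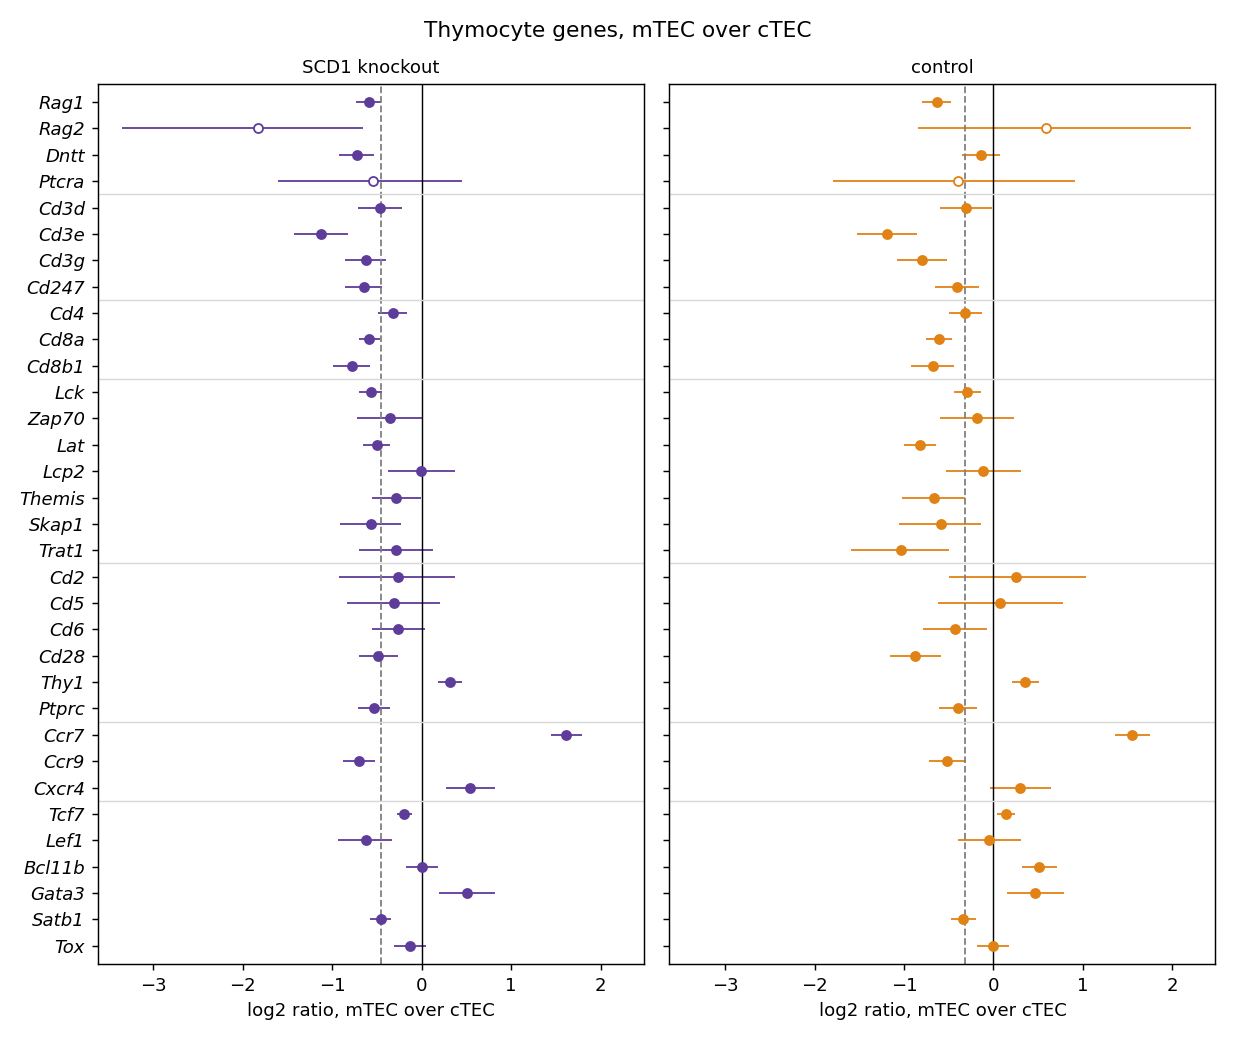
mTEC over cTEC log2 ratio of each gene in knockouts (left) and controls (right), with 95% counting intervals and both panels on the same scale. Dashed lines mark the medians, and open circles mark genes with under 50 counts. Ccr7 stands apart at 1.62 and 1.55, and among the measured genes Cd3e lies lowest at −1.12 and −1.19.

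A narrower set of 18 genes leaves out several that other thymic cells also express, such as Ccr7, Thy1 and the transcription factors. It keeps Rag1, Rag2, Dntt, Ptcra, the CD3 genes, Cd8a, Cd8b1, Lck, Zap70, Lat, Themis, Trat1, Cd5, Cd6 and Cd28. Whether other thymic cells contribute to these, such as to Cd8a, was not tested. Cd247, which shares 60.3% of its exon bases with other genes, also stays in. Of the 18 genes, 16 were measured in each comparison. Knockout over control ratios of their summed counts were 0.33 (0.28 to 0.39) in mTEC and 0.36 (0.31 to 0.41) in cTEC, with 15 and 16 genes above 0 (52.0% and 52.4% of all genes). The medians of the 16 were 0.38 in mTEC and 0.36 in cTEC, in the opposite order to the medians of the 31 measured genes. In mTEC over cTEC the ratios of summed counts were −0.58 (−0.63 to −0.53) in knockouts and −0.56 (−0.61 to −0.50) in controls, with 0 and 1 genes above 0 (45.3% and 46.5% of all genes). For the 33 genes together, the same ratios were −0.28 (−0.32 to −0.25) in knockouts and −0.16 (−0.20 to −0.12) in controls. With library totals in place of TMM they were −0.19 in knockouts and −0.069 in controls. Without Ccr7 they were −0.37 in knockouts and −0.25 in controls. Without the 19 genes whose span, introns included, overlaps another annotated gene, they were −0.093 in knockouts and 0.0052 in controls. This turns the sign in controls. Only 3 of the 33 genes share over 10% of their exon bases with other genes, so most of the 19 left out share few or none.

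Ratios of counts within a library are free of library scaling. Rag1 and Rag2 counts were 1.05 of the Cd3d, Cd3e and Cd3g counts in knockout mTEC, 1.16 in control mTEC, 0.991 in knockout cTEC and 1.07 in control cTEC, with overlapping intervals. Dntt was 0.556 (0.487 to 0.634) of the same 3 CD3 genes in knockout mTEC and 0.776 (0.676 to 0.891) in control mTEC, which do not overlap. In cTEC it was 0.569 (0.513 to 0.630) in the knockout and 0.514 (0.452 to 0.584) in the control. Ptcra was between 0.0168 and 0.0235 of those counts, too few to order.

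Cd4 was 0.595 and 0.671 of Cd8a in knockout and control mTEC and 0.496 and 0.549 of it in knockout and control cTEC, with overlapping intervals within each pair. Cd8b1 lay between 0.302 and 0.368 of Cd8a in all 4 libraries. Ccr7 was 2.83 (2.53 to 3.17) of Ccr9 in knockout mTEC and 2.75 (2.43 to 3.12) in control mTEC, against 0.568 (0.50 to 0.646) in knockout cTEC and 0.655 (0.563 to 0.761) in control cTEC. Cd5 was 0.431 and 0.357 of Cd3e in knockout and control mTEC and 0.245 and 0.148 in knockout and control cTEC. Cd28 was 2.18 (1.78 to 2.69) of Cd3e in knockout mTEC and 1.48 (1.16 to 1.90) in control mTEC, and 1.40 and 1.19 in knockout and control cTEC. The mTEC and cTEC intervals of Ccr7 over Ccr9 lay apart in both genotypes, while those of the genotypes overlapped in both populations.

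**Figure D5:**
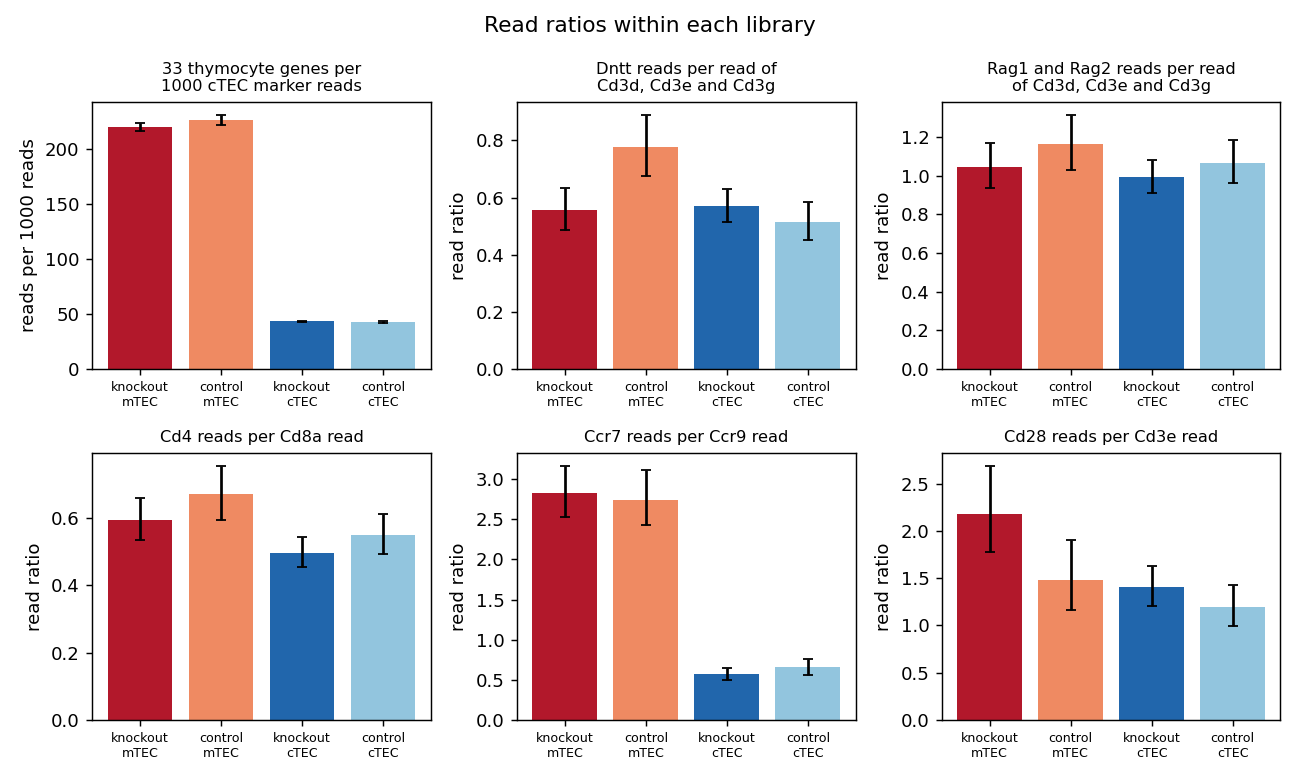
Count ratios between genes within each library, with exact 95% intervals. Bars are single libraries. Ccr7 over Ccr9 is 2.83 and 2.75 in knockout and control mTEC and 0.568 and 0.655 in knockout and control cTEC, and Dntt over the CD3 genes is highest in control mTEC at 0.776.

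Set against epithelial genes of the same library, the 33 genes had 221 counts (217 to 225) per 1000 counts of the 10 cTEC markers in knockout mTEC and 227 (223 to 232) in control mTEC, and 43.3 (42.7 to 44.0) in knockout cTEC and 42.5 (41.7 to 43.3) in control cTEC. On this scale knockout and control lay close to each other in both populations. Per 1000 counts of general epithelial genes they had 85.0 (83.5 to 86.4) in knockout mTEC and 78.6 (77.2 to 80.1) in control mTEC, and 81.3 (80.1 to 82.6) in knockout cTEC and 68.5 (67.3 to 69.8) in control cTEC, and here the knockout was higher in both. That list includes H2-Aa, an MHC class II gene not confined to epithelium. H2-Aa gave 69301 of the 168497 list counts in knockout mTEC and 60816 of 150731 in control mTEC. In cTEC it gave 50722 of 213754 in the knockout and 42196 of 173426 in the control. T cell receptor constant genes had 383 (364 to 403) counts per 1000 of the narrower 18 genes in knockout mTEC and 320 (301 to 340) in control mTEC, and 385 (369 to 401) in knockout cTEC and 370 (352 to 389) in control cTEC, so control mTEC was lower than the rest. Transcription factors had 807 (776 to 839) per 1000 in knockout mTEC and 961 (921 to 1004) in control mTEC, against 629 and 625 in knockout and control cTEC.

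Of 42 further T cell genes listed apart from the 33, 39 were measured in mTEC and 40 in cTEC. Knockout over control ratios had medians of 0.18 in mTEC (28 of 39 above 0, against 52.0% of all genes) and 0.22 in cTEC (31 of 40 above 0, against 52.4%). Counts summed over the 42 genes gave lower log2 ratios, 0.10 (0.07 to 0.13) in mTEC and 0.01 (−0.02 to 0.04) in cTEC. The 25% rule was met upwards by 8 of 39 in mTEC (4.86% of all genes) and 14 of 40 in cTEC (5.42% of all genes). Downwards it was met by 0 of 39 in mTEC (3.3% of all genes) and 4 of 40 in cTEC (5.74% of all genes). In mTEC over cTEC, 39 were measured in each genotype, with 18 above 0 and 21 below. Their medians were −0.041 in knockouts and −0.036 in controls, against −0.077 and −0.055 over all genes. With library totals the medians of the list turned to 0.052 and 0.056. The lower mTEC levels of most of the 33 genes were thus not shared by this list. The 4 of the 42 genes with the most counts are also expressed outside T cells. Klf2 had 4425 and 3733 counts in knockout and control mTEC (0.20) and 5790 and 6094 in knockout and control cTEC (−0.27). Notch1 stood at −0.13 in mTEC and −0.28 in cTEC, Ptpn22 at −0.07 in mTEC and 0.11 in cTEC, and Ikzf1, which encodes the lymphoid regulator Ikaros, at 0.15 in mTEC and 0.28 in cTEC.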

How the data were processed

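RNA of sorted mTEC and cTEC was sequenced as 1 library per genotype and population with the NEBNext Ultra RNA kit, per the labels' protocols. The authors deposited raw counts per gene in 1 table with gene coordinates and gene length in bases, another value taken as deposited per the file headers. The submitters' processing notes name CASAVA, HISAT2 2.0.5, featureCounts 1.5.0-p3 and mm10. No source used here states the annotation release or the strand and multi-mapping settings, so counts where genes overlap are uncertain.

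Members and lists were chosen with earlier results of these data known. Counts were scaled with TMM (edgeR 4.0.16, R 4.3.3). Ratios per gene carry an exact conditional binomial interval, levels an exact Poisson interval, within-library ratios an exact Clopper-Pearson interval and differences of ratios a normal approximation on the log scale, all at 95%. A gene entered the counts with at least 50 counts over a pair, and was counted at 2-fold, or at a difference of 25%, where its interval excluded 0. Ratios are log2 values with a prior count of 0.5. A count of 0 would allow up to 3 counts, or 0.171 to 0.196 CPM (TMM-scaled). The code was tested on simulated data. RPKM used the deposited gene length. Promoters came from RefSeq (GRCm38.p6). Shared exon bases came from GENCODE M21, whose exon length equals the deposited one for 30 of the 33 genes. Genes that overlap another gene were set by whole gene spans, introns included, in the deposited coordinates. No p-value is given.

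Genes given with all their values are those with the most counts in each role, those past the 2-fold rule and those whose interval excludes the median of the 33, and others were added so that every member is described. Outside the members, at most 4 genes with the most counts per list were to be named, and Scd1. Aire and Psmb11 were added to check the sort. Alternatives were DESeq2 1.42.0 size factors, library totals, other minimums and prior counts, and narrower gene sets.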

Additional observations from a re-analysis of the deposited data

Results flagged for a closer look

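Dntt and Bcl11b had knockout over control ratios on opposite sides of 0 in the 2 populations, below it in mTEC and above it in cTEC. Lef1 did so with TMM, at −0.0052 in mTEC, but stood at 0.00060 there with DESeq2 size factors, so its side of 0 in mTEC is not settled. The difference, mTEC minus cTEC, was −0.59 for Dntt, −0.58 for Lef1 and −0.51 for Bcl11b on the log2 scale, with counting intervals that exclude 0 for each. The mTEC ratios of Dntt and Bcl11b were both −0.11, and the intervals of all 3 mTEC ratios include 0. With 1 library per group the difference was not tested.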

How the results depend on the processing

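No paired analysis was possible because each group has 1 library, and for the same reason no library could be left out. Of 372 alternatives for single genes, 371 moved by less than the counting interval, and Tcf7 in mTEC over cTEC of knockouts stood at −0.10 with library totals. The mTEC genotype ratio of Lef1 turned to 0.00060 with DESeq2 size factors, within its interval. In mTEC over cTEC, ratios within 0.05 of 0 also turned: Lcp2 in knockouts to 0.023 with DESeq2 size factors and 0.090 with library totals, Tox in controls to 0.0098 and 0.090, and Lef1 in controls to 0.047 with library totals. For the 33 genes as a list, 182 of 214 alternatives stayed close to the value reported, 31 moved and 1 changed sign. Under narrower sets, fewer genes enter each count.

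In the mTEC genotype pair, the summed ratio was 0.33 for the 18 narrower genes. It was 0.27 without genes whose span overlaps another gene, which left 5 genes past the 25% rule. DESeq2 size factors gave 1 gene at 2-fold. In the cTEC genotype pair, 11 narrower genes and 10 genes free of overlap met the 25% rule, and 1 gene, Rag2, met the 2-fold rule with no minimum.

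For mTEC over cTEC in knockouts, the median was −0.32 without overlapping genes. The summed ratio was −0.19 with library totals, −0.58 for the narrower genes, −0.093 without overlapping genes and −0.37 without Ccr7. The gene at 2-fold higher was lost (0) in the narrower set and without Ccr7, where 0 and 11 narrower genes met the 25% rule upwards and downwards. Those 2-fold lower were 2 with no minimum and 0 without overlapping genes, which left 7 past the 25% rule downwards.

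For mTEC over cTEC in controls, the median was −0.62 for the narrower genes. The summed ratio was −0.069 with library totals, −0.56 for the narrower genes, −0.21 without Tcf7, −0.25 without Ccr7 and 0.0052 without overlapping genes, which turned its sign. The gene at 2-fold higher was again lost (0) in the narrower set and without Ccr7, and 0 narrower genes met the 25% rule upwards. Those 2-fold lower were 1 with library totals, 1 with a minimum of 200 counts and 0 without overlapping genes, which left 5 past the 25% rule downwards. Leaving out Tcf7 or Ccr7 was chosen after seeing the data. The cause of these shifts was not tested. Depth limits Rag2, Ptcra, Cd2 and Cd5 most.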
